A study of Mus musculus with 2 samples.

Results

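The 7 connexin genes Gja1, Gja3, Gja4, Gja5, Gjb2, Gjc1 and Gjd3 were described in total RNA from the heart of B6NCrl mouse embryos (a C57BL/6N substrain) at embryonic day 13.5. They were chosen by symbol, and all 7 were found among 20 connexin genes and 21474 protein-coding genes in the files. There were 2 libraries of 1 group, biological replicates 2 and 1, each made from a pool of healthy male and female embryos with no treatment or mutation. The labels list both tissue samples under the same donor entry, so the replicate numbers do not show how far the pools were independent. With 1 group there is no contrast between conditions, so each value is given per library with its spread and without a p.

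Connexins are the protein subunits of gap junctions. Subunits form a hemichannel in one cell, which docks with a hemichannel of the neighbouring cell through its extracellular loops, so that ions and small molecules pass between the cells. In the heart this coupling carries the electrical impulse from cell to cell. Gja1 encodes Cx43, the main connexin of working ventricular muscle, and Gja5 encodes Cx40, known from atrial muscle, the His-Purkinje system and arterial endothelium. Gjc1 encodes Cx45, a low-conductance connexin of the early heart tube and conduction tissue, and Gjd3 encodes Cx30.2, known in the mouse from the nodes. Gja4 encodes Cx37 of endothelial cells, Gja3 encodes Cx46, best known from lens fibres, and Gjb2 encodes Cx26 of epithelia, cochlea and liver.

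The docking loops are held by cysteines at a fixed spacing. The spacing of the first loop, 3 cysteine codons with 6 and then 3 codons between them, was found in the reading frame of all 7 members, of 19 of 20 connexin genes (Gje1 was the exception) and of 450 of 21504 protein-coding genes (2.09%). The stretches of 6 members were read from the GENCODE M21 transcripts, 5′ to 3′, 60 bases each, with the 3 cysteine codons in capitals.
Gja1: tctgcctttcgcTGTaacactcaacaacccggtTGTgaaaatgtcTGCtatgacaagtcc
Gja5: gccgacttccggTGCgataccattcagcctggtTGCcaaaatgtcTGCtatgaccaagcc
Gjc1: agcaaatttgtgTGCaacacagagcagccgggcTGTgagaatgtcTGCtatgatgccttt
Gja3: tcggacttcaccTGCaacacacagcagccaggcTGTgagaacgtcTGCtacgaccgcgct
Gjd3: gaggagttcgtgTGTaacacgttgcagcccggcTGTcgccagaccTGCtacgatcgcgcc
Gjb2: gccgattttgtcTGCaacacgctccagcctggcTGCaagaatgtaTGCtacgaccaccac
The first capital codon was number 53 of the reading frame in Gjc1 and Gjb2 and number 54 in the other 4 shown. Between pairs of the 6 stretches shown, identical bases ran from 32 of 60 (Gja1 and Gjd3) to 42 of 60 (such as Gja3 and Gjb2). Over whole coding sequences the identity of aligned bases ran from 63.6% (Gja1 and Gjd3) to 72.9% (Gjb2 and Gjc1).

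The members can still be told apart by sequencing. None of the 50-base windows of the 7 leading transcripts, from 788 in Gjd3 to 3060 in Gja5, occurred in a transcript of another gene, on either strand. All 14 gene counts of the members were whole numbers (within 0.005), and the deposited standard deviation of each was 0, so no reads were divided between a member and another gene. No exon of another gene lies opposite an exon of a leading member transcript in that annotation. In each member the whole coding sequence lies in 1 exon.

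Estimated reads summed to 36060765 in replicate 2 and 36733400 in replicate 1, of which 32485 and 30486 belonged to the 7 members. Added spike-in RNA held 5.04% of all TPM in replicate 2 and 11.1% in replicate 1, and globin genes 9.05% and 13.6%. TPM, the deposited level per transcript length and library, was lower across most genes in replicate 1, with a median log2 TPM ratio of 0.15 (replicate 2 over replicate 1) over 13766 genes. Ratios between libraries are given instead from counts scaled by TMM, whose median log2 ratio was −0.003. Over those genes the chi-square of the counts was 25.2 for each degree of freedom, so the files do not hold 1 library deposited again, but this cannot tell separate tissue pools from separate libraries of 1 pool. Markers of heart muscle were high: all 8 of the working myocardium list passed 1 TPM in both libraries, against 57.3% of all protein-coding genes. Actc1, Myl2 and Tnnt2 led.

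Of the 7 members, 6 reached 1 TPM in both libraries, against 57.3% of all protein-coding genes, and 4 reached 10 TPM, against 33.9%. In order of level they were Gja1, Gja5, Gjc1, Gja4, Gja3, Gjd3 and Gjb2, in both libraries. In all 21 pairs, and so in all 6 neighbouring pairs, the deposited credibility intervals of the 2 genes were apart in each library. The mean level of Gja1 was 1278-fold that of Gjb2, and the share of other gene pairs with intervals apart was not counted. The intervals cover the estimate within 1 library, and the headers do not state their level. They were centred on a posterior mean that can lie below the TPM, and for Gja1 the TPM lay above its own upper bound in both libraries.

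**Figure D1:**
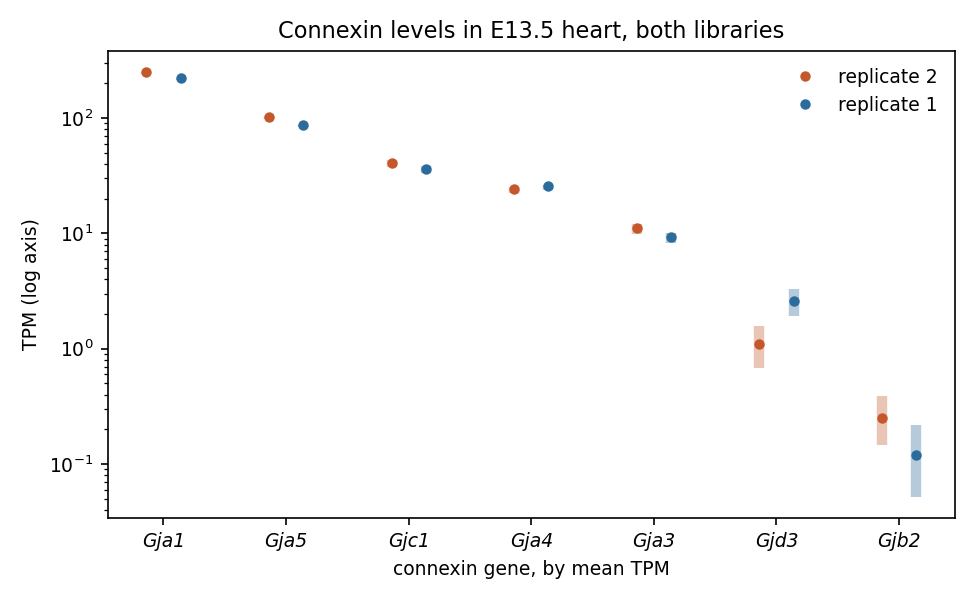
TPM of the 7 connexin genes on a log axis, with a point for each library (replicate 2 left, replicate 1 right) and a bar for the deposited bounds of its interval. Levels descend from Gja1 at 252 and 221 TPM to Gjb2 at 0.25 and 0.12 TPM, and the bars of neighbouring genes are apart within each library.

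The working muscle connexin Gja1 (ENSMUSG00000050953.9, chromosome 10, 56377330 to 56402513, GRCm38) was the highest of the 20 connexin genes in both libraries. It stood at 252 TPM in replicate 2 (bounds 243 to 249.8) and 221 TPM in replicate 1 (bounds 214 to 220.0), from 20725 and 19489 reads. The mean was 236 ± 21.4 TPM (SD, n = 2), and 97.7% of protein-coding genes were lower in each library. Gja1 held 57.8% of the TPM of all 20 connexin genes in replicate 2 and 57.7% in replicate 1. This share differed far less between the libraries than the TPM did. On scaled counts the log2 ratio of replicate 2 over replicate 1 was 0.04, with a counting interval (exact binomial, 95%) of 0.01 to 0.07. Among the 13766 genes with a mean of at least 50 reads, 76.0% were at least as far apart. In bulk RNA, fewer cells of a type and less RNA per cell cannot be told apart, here and for every member.

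The atrial and His-Purkinje connexin Gja5 (ENSMUSG00000057123.10, chromosome 3, 96904693 to 97077416) was next. It stood at 103 TPM in replicate 2 (bounds 98.7 to 103.9) and 87.0 TPM in replicate 1 (bounds 83.5 to 87.9), from 8330 and 7567 reads. Its share of connexin TPM was 23.7% in replicate 2 and 22.7% in replicate 1. Gja1 exceeded Gja5 by 2.44-fold in replicate 2 and 2.54-fold in replicate 1 (mean log2 ratio 1.32 ± 0.04, SD, n = 2). The ratio of these muscle connexins was thus nearly the same in both libraries. The log2 ratio of Gja5 between libraries was 0.09 (counting interval 0.05 to 0.14).

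The low-conductance connexin Gjc1 (ENSMUSG00000034520.10, chromosome 11, 102799579 to 102819700) followed. It stood at 41.2 TPM in replicate 2 (bounds 38.1 to 43.3) and 36.2 TPM in replicate 1 (bounds 33.4 to 38.3). Its share of connexin TPM was 9.47% in replicate 2 and 9.43% in replicate 1, while its share of connexin reads, which is not corrected for length, was 5.83% and 5.82%. Gja1 exceeded Gjc1 by 6.11-fold in replicate 2 and 6.12-fold in replicate 1 (SD of the log2 ratio 0.001, n = 2). This SD was the smallest among the 21 ratios and far below the counting error of Gjc1, so it does not measure how steady the ratio is. Gja5 exceeded Gjc1 by 2.50-fold and 2.41-fold. The log2 ratio of Gjc1 between libraries was 0.05 (counting interval −0.05 to 0.14).

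**Figure D2:**
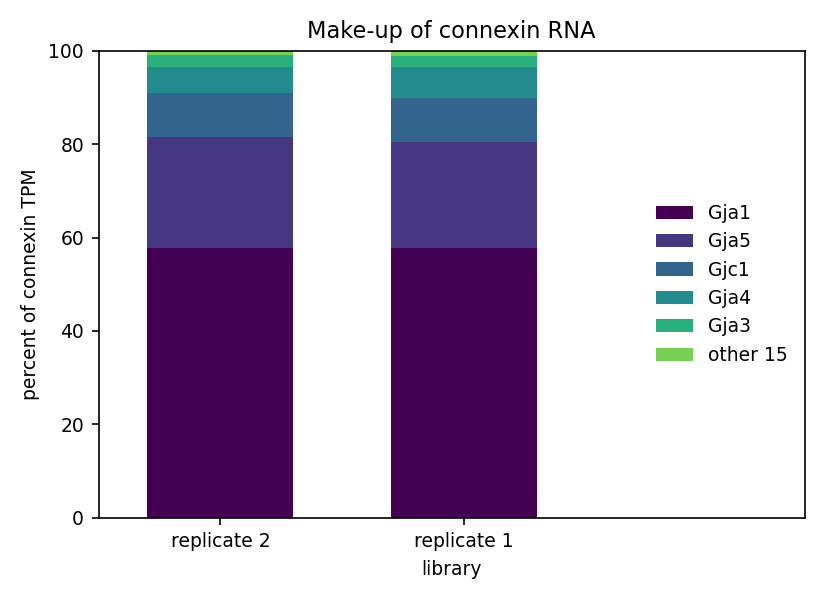
Percent of the summed TPM of all 20 connexin genes held by the 5 highest genes and by the other 15 together, with a stacked bar for each library. Gja1 holds 57.8% in replicate 2 and 57.7% in replicate 1, and Gja5 holds 23.7% and 22.7%.

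The nodal connexin Gjd3 (ENSMUSG00000047197.1, chromosome 11, 98982180 to 98983016) was near the detection limit and had fewer reads in replicate 2 than in replicate 1. It had 22 reads and 1.09 TPM in replicate 2 (bounds 0.68 to 1.58), against 56 reads and 2.59 TPM in replicate 1 (bounds 1.92 to 3.27). The intervals of the libraries did not overlap, but this was also so for Gja1 and Gja5. On scaled counts the log2 ratios of Gja1 and Gja5 were only 0.04 and 0.09. The share of all genes with intervals apart was not counted, so intervals apart do not set Gjd3 apart. The gene model has 837 bases, all of them coding, so reads from untranslated parts were not counted. On scaled counts replicate 2 was lower by a log2 ratio of −1.37 (counting interval −2.18 to −0.66), which is 0.386-fold, while on the spike-in scale the ratio was −0.10. Its mean of 39 reads is below the minimum of 50 set for calling a 2-fold difference. Among the 17103 genes with at least 10 reads, 4.21% were at least 2-fold apart and 2.27% were at least as far apart as Gjd3.

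The conduction list as a whole did not move one way between the libraries. Of 13 genes, 6 were higher and 7 lower in replicate 2, with log2 ratios from −1.01 to 0.21. Among the 11 with at least 50 reads none was 2-fold apart, where 1.01% of all genes with that many were. The median over all 13 was −0.14 and over those 11 it was 0.01, so its sign depends on the genes with few reads. Its summed level was 385 TPM in replicate 2 and 331 TPM in replicate 1, most of it from Id2 and Kcne1. The pacemaker channel gene Hcn4 had 97 reads in replicate 2 and 151 in replicate 1 (log2 ratio −0.68). The sinus node regulators Shox2, Tbx3 and Isl1 had log2 ratios of −0.49, −0.46 and −0.45, and the first 2 of these are also in the list of connexin regulators described last. Hcn4, Shox2, Tbx3 and Isl1 were named after their values were seen, and they do not stand for the list. Kcne1 and Id2 were among the 6 higher genes, with log2 ratios of 0.21 and 0.07. No gene of the list was at 0, and Cntn2 was below 1 TPM in both libraries. Whether nodal tissue had a part in the Gjd3 difference was not tested.

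The endothelial connexin Gja4 (ENSMUSG00000050234.7, chromosome 4, 127311421 to 127314039) followed Gjc1 in level. Of the 5 members with at least 50 reads, it alone was lower in replicate 2 on scaled counts, though not on the spike-in scale (log2 ratio 1.06). It stood at 24.2 TPM in replicate 2 (bounds 22.2 to 25.1) and 25.6 TPM in replicate 1 (bounds 23.7 to 26.5), from 1050 and 1189 reads. The mean was 24.9 ± 1.01 TPM (SD, n = 2). The intervals overlapped, and on scaled counts the log2 ratio was −0.22 (counting interval −0.35 to −0.10). Of all 13766 genes with a mean of at least 50 reads, 18.9% were at least as far apart. Many of these have fewer reads than Gja4. Differences of 2-fold were rarer at a minimum of 200 reads (0.312%) than at 50 (1.01%). The share at a depth like that of Gja4 was not counted. All 12 endothelial and endocardial marker genes passed 1 TPM, with 4 higher and a median log2 ratio of −0.09 (summed level 720 TPM in replicate 2 and 671 TPM in replicate 1). Of 9 arterial genes, all passed 1 TPM and 3 were higher, with a median of −0.03. Of protein-coding genes, 57.3% passed 1 TPM in both libraries, and 6200 of 12804 with at least 50 reads were higher in replicate 2. The part of the marker genes in the Gja4 value was not tested.

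On the TPM scale Gja4 was the 1 gene of the 5 highest that was not higher in replicate 2, and among those 5 the ratios that include it varied most. Gjc1 exceeded Gja4 by 1.71-fold in replicate 2 and 1.41-fold in replicate 1 (mean log2 ratio 0.64 ± 0.19, SD, n = 2). This was the narrowest step in the order. The share of Gja4 in connexin TPM was 5.55% in replicate 2 and 6.67% in replicate 1, and in connexin reads 3.22% and 3.89%.

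Gja3 (ENSMUSG00000048582.6, chromosome 14, 57034460 to 57058100), the lens fibre connexin, was expressed at an intermediate level. It stood at 11.2 TPM in replicate 2 (bounds 9.95 to 11.98) and 9.35 TPM in replicate 1 (bounds 8.31 to 10.1), from 443 and 397 reads. Its mean of 10.3 ± 1.28 TPM (SD, n = 2) lay above that of the median protein-coding gene, 3.07 TPM. The log2 ratio between libraries was 0.11 (counting interval −0.09 to 0.31). Lens genes were near absent beside it: of 6, Cryaa, Mip and Lim2 had 0 reads in both libraries, Bfsp1 was at 1.44 and 1.16 TPM, and the summed level was 2.19 TPM in replicate 2 and 2.14 TPM in replicate 1. The files' model of Gja3 has 1548 bases and the later annotation 2766, so reads beyond the shorter model were not counted.

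Gjb2 (ENSMUSG00000046352.7, chromosome 14, 57098600 to 57104702), the epithelial and liver connexin, was the lowest member. It had 16 reads and 0.25 TPM in replicate 2 (bounds 0.15 to 0.39), against 8 reads and 0.12 TPM in replicate 1 (bounds 0.05 to 0.22). The log2 ratio was 0.91, and its counting interval of −0.35 to 2.39 spans 0, so no difference was detectable at this depth. Epithelial and epicardial genes beside it passed 1 TPM in both libraries in 9 of 10 cases, against 57.3% of all protein-coding genes. Krt19, Upk3b and Krt18 led. The median log2 ratio was −0.25, with Krt5 at −2.65, and the summed level was 201 TPM in replicate 2 and 214 TPM in replicate 1. The part of these genes in the Gjb2 value was not tested. Gja1 exceeded Gjb2 by 1007-fold in replicate 2 and 1844-fold in replicate 1.

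The 13 connexin genes outside the 7 added little: together they held 0.52% of connexin TPM in replicate 2 and 0.36% in replicate 1. None reached 1 TPM in both libraries, and 12 were below 1 TPM in both. Gjb1, the main connexin of hepatocytes (Cx32), passed 1 TPM in replicate 2 alone, at 1.67 TPM and 67 reads, against 0.30 TPM and 13 reads in replicate 1. Its log2 ratio was 2.28 (counting interval 1.45 to 3.30), from a mean of 40 reads, which is also below the minimum of 50 for a call. Of the 17103 genes with at least 10 reads, 0.795% were at least as far apart. All 12 hepatocyte marker genes were also higher in replicate 2, with log2 ratios from 1.33 to 2.93 and a median of 2.35, and a summed level of 511 TPM against 102 TPM in replicate 1. None was at 0 in either library, and Hnf4a was below 1 TPM in both. The part of liver RNA in the Gjb1 and Gjb2 values was not tested. Without Gjb1, no other gene of the 13 exceeded 0.29 TPM or 17 reads, and Gje1 had 0 reads in both, which allows up to 0.079 TPM in replicate 2 and 0.074 TPM in replicate 1 (3 reads).

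Some connexin genes lie near each other in the genome, and these neighbours differed in level. On chromosome 4, Gjb5 lies 40.8 kb from Gja4 on the same strand. Gja4 had 1050 reads in replicate 2 and 1189 in replicate 1, against 8 and 14 for Gjb5. On chromosome 14, Gjb2 and Gjb6 lie 40.5 and 65.2 kb from Gja3 on its strand. Gja3 had 443 reads in replicate 2 and 397 in replicate 1, against 16 and 8 for Gjb2 and 4 and 10 for Gjb6.

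Between the libraries, none of the 5 members with a mean of at least 50 reads was 2-fold apart, where 1.01% of 13766 genes were. Their log2 ratios ran from −0.22 (Gja4) to 0.11 (Gja3), and the median absolute log2 ratio of all those genes was 0.10. On the scale of the added spike-ins the median of all genes moved to 1.29, and the same 5 members then stood between 1.06 (Gja4) and 1.40 (Gja3), so the directions above are relative to the other genes of the heart and not absolute amounts.

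**Figure D3:**
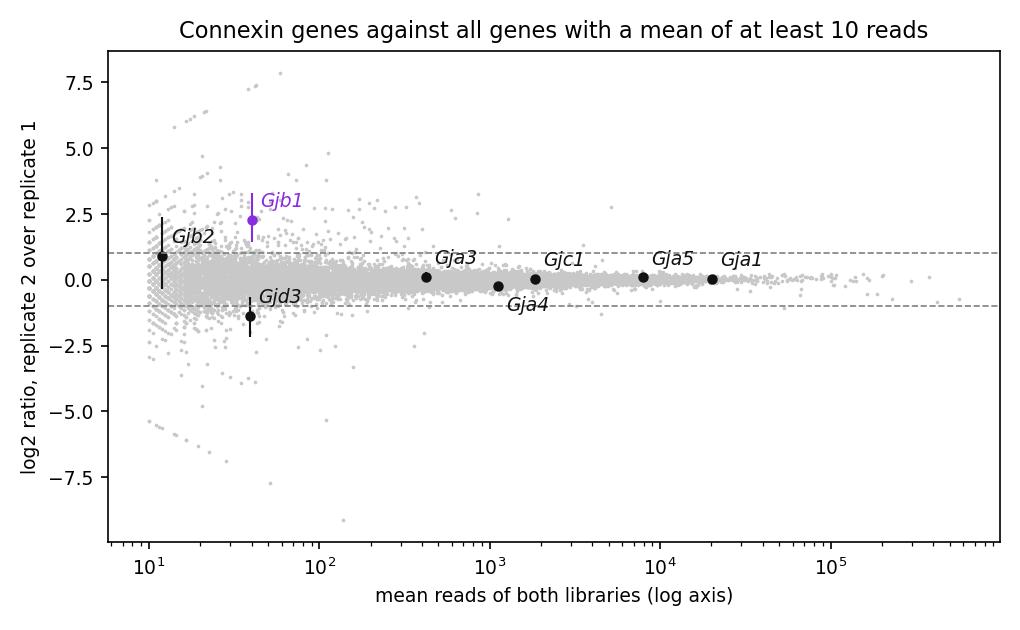
Log2 ratio of scaled counts, replicate 2 over replicate 1, against mean reads (log axis), for all genes with a mean of at least 10 reads (grey), the 7 members (black) and Gjb1 (violet), with exact binomial counting intervals as vertical lines and dashed lines at a 2-fold difference. The 5 well-covered members lie between −0.22 and 0.11, Gjd3 at −1.37 and Gjb1 at 2.28.

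Transcript models differed in number between the members. The files list 1 transcript for Gja1, Gja3, Gja4, Gjb2 and Gjd3, 2 for Gja5 and 5 for Gjc1. Gja5-201, of 3109 bases, held 97.6% of Gja5 TPM in replicate 2 and 98.4% in replicate 1. Both Gja5 transcripts begin at the same base (chromosome 3, 97032416), so all of the listed Gja5 RNA is assigned to 1 start. A later annotation holds 3 transcripts for Gja5 and 8 for Gja1, and use of those added starts was not measured here.

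Gjc1 was led by Gjc1-201, of 1903 bases, at 78.7% of Gjc1 TPM in replicate 2 and 76.3% in replicate 1 (77.5% ± 1.68, SD, n = 2). The next was Gjc1-204, a non-coding model of 247 bases, at 10.4% and 10.8%, but it held 17.5 and 17.0 reads, or 0.92% and 0.95% of Gjc1 reads. Shares of TPM are corrected for length, so a short model needs few reads. Its interval was 2.52 to 6.55 TPM in replicate 2 and 2.22 to 6.08 TPM in replicate 1. Gjc1-202, whose start lies furthest upstream, and Gjc1-203, which starts within the gene, held 4.09% and 4.55% in replicate 2 and 5.11% and 5.61% in replicate 1. The retained-intron model Gjc1-205 held 2.19% and 2.11%.

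**Figure D4:**
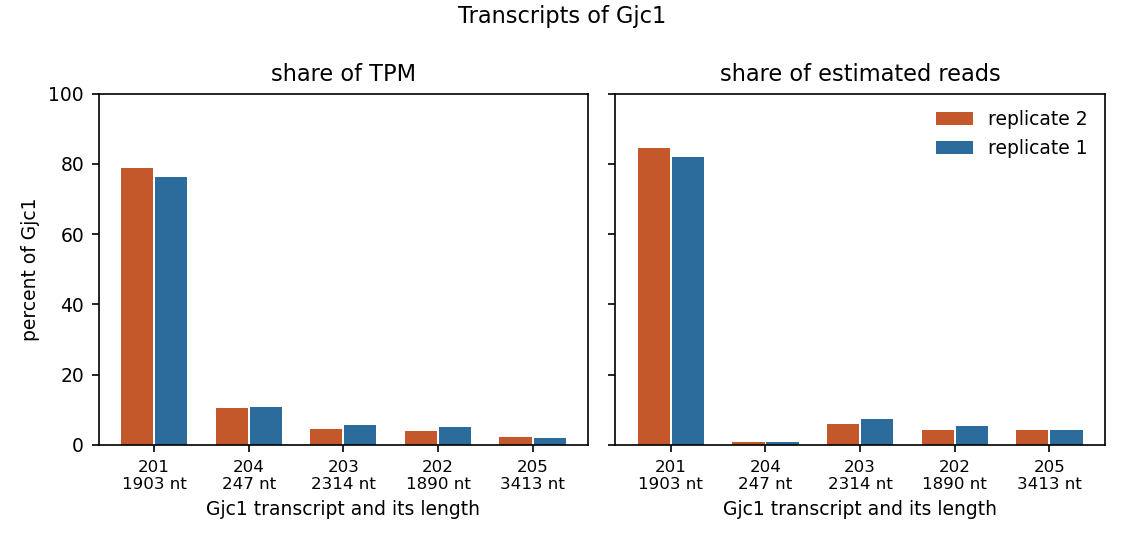
Percent of Gjc1 held by each of its 5 listed transcripts, by TPM (left) and by estimated reads (right), with a bar for each library. Gjc1-201 leads on both scales, while the 247-base Gjc1-204 holds 10.4% and 10.8% of TPM but 0.92% and 0.95% of reads.

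The sequence before the start is shown for Gja1 and Gja5, the highest members, since their levels and the single listed start of Gja5 bear on these regions. The 250 bases before each start are from RefSeq on GRCm38.p6, plus strand, 5′ to 3′, at chr10:56377050-56377299 and chr3:97032152-97032401, with motif matches in capitals.
Gja1: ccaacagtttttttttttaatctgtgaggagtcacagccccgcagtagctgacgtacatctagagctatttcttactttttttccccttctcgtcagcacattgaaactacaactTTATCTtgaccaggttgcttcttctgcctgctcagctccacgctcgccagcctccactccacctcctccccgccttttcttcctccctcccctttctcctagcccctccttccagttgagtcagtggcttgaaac
Gja5: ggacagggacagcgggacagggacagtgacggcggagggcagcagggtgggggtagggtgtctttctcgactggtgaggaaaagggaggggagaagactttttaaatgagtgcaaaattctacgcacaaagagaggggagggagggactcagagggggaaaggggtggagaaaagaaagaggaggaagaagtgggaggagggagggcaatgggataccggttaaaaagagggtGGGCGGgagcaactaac
Both strands were searched for a T-box core (TCACACC, in 3.33% of 32851 such windows), an NKX site (TNAAGTG, in 10.1%), a GATA site (AGATAA, in 9.99%), a GC box (GGGCGG, in 32.7%) and TATAAA (in 12.4%). The Gja1 window held 1 GATA match, which begins 135 bases before the start, and the Gja5 window held 1 GC box, 17 bases before it. Of the other members, 3 had an entry: Gja4 held 1 GC box, Gjb2 held 2, and the first of the Gja3 starts held TATAAA. No T-box or NKX letters were found in these windows, and a match or its lack says nothing of binding.

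Genes of factors known to act on connexin genes were all expressed. T-box, NK and GATA factors turn Gja5 and Gja1 on or off in mouse heart. All 14 of this list passed 1 TPM in both libraries, against 57.3% of all protein-coding genes, with a median of 11.5 TPM. Nkx2-5, Gata4 and Tbx20 led at 110 ± 7.57, 86.6 ± 3.27 and 56.3 ± 1.65 TPM (SD, n = 2). Tbx5, an activator of Gja5, stood at 22.1 TPM in replicate 2, against 24.9 TPM in replicate 1. The repressors Tbx2 and Tbx3, known from non-chamber muscle, stood at 1.67 and 6.91 TPM in replicate 2 and at 2.24 and 8.79 TPM in replicate 1. Of the 14 genes, 4 had a log2 ratio above 0, against 6200 of 12804 protein-coding genes with a mean of at least 50 reads. None was 2-fold apart. Of all genes with a mean of at least 50 reads 1.01% were, so this does not set the list apart.

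Genes of the proteins that hold connexins at the cell border were expressed as well. All 21 genes of this list passed 1 TPM in both libraries, against 57.3% of all protein-coding genes, with a median of 24.6 TPM. None was 2-fold apart. Of all genes with a mean of at least 50 reads 1.01% were, so this does not set the list apart. The ubiquitin ligase gene Nedd4, whose product acts on Cx43, led at 378 ± 20.3 TPM (SD, n = 2). The junction genes Ctnnb1 (beta-catenin) and Cdh2 (N-cadherin) followed at 215 ± 13.9 and 126 ± 6.17 TPM. Tjp1, the ZO-1 scaffold that binds the tail of Cx43, stood at 17.7 TPM in replicate 2, against 16.3 TPM in replicate 1, below Gja1 and Gja5 in both.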

How the data were processed

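The authors deposited each estimated count per gene and transcript as an unnormalized value, per the file headers. They deposited TPM scaled over every listed feature, spike-ins included, and, as a signal column, lower and upper TPM bounds of a level that no header names. They also deposited the percent of the TPM of a gene that each transcript holds. The text deposited beside each library says that values were made from transcriptome alignments on mm10 with annotation M4. Aligner, quantifier, versions and any use of strand: not given in the sources used here. RNA above 200 nt was extracted with mirVana and libraries started from 10 ng, per the labels' protocols.

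Version-free gene IDs were looked up in GENCODE M21, which uses the same assembly (42462 of 43346). Expected counts were rounded. Spike-ins and 26248 numbered entries were left out of library sizes. Counts were scaled with edgeR 4.0.16 (TMM), or DESeq2 1.42.0 size factors or spike-ins as alternatives, with 0.5 added for log2 ratios. Sequences were compared with biopython 1.88, by global alignment. Counting intervals and floors cover counting error only, since reads are not independent molecules. The ratio step was tested on simulated counts, where shares of 0.84 to 0.96 of genes with a set change were called in the right direction. Of unchanged genes a share of 0.000147 was called 2-fold apart, while 1.01% of genes were in these libraries. The simulated counts were thus less variable than the libraries and do not give their rate of false calls. The members and lists were chosen with earlier results of these data known. Named genes are all members, connexins and pannexins that reached 1 TPM in either library, the 3 highest of each list and those under 1 TPM where 4 or fewer; genes named beyond that were chosen after their values were seen. The planned protein comparison was not made; coding sequences were compared instead. Some genes and 1 coding stretch are not reported here.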

Additional observations from a re-analysis of the deposited data

How the results depend on the processing

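The order of the members and the number detected changed little with the processing. Of 21 pairs, 20 were called when a 1.5-fold difference in each library replaced the bounds, Gjc1 and Gja4 being the exception. Of 7 members, 4 reached 10 TPM and 5 had a lower bound of at least 1 TPM. The summed level of 407 TPM stood at 506 TPM when globins and spike-ins were left out of the scale, and at 382 to 433 TPM in single libraries. The share of Gja1 was 57.6% by posterior means, 58.0% over the 7 members and 63.7% by counts, and 57.7 to 57.8% in single libraries. By counts the shares of genes with short models were over 1.5 times lower: 5.83% for Gjc1, 3.56% for Gja4, 1.33% for Gja3 and 0.13% for Gjd3, against 9.45%, 6.11%, 2.50% and 0.46% by TPM. The count of members 2-fold apart was 0, but 5 with spike-in factors and 1 (Gjd3) at a minimum of 10 reads. Spike-in factors took Gjd3 to a log2 ratio of −0.10. Gjc1-201 held 83.2% by counts, an alternative chosen after seeing the data, and 76.3 to 78.7% in single libraries. No paired analysis was possible because there is 1 group. Depth limits Gjd3 and Gjb2, whose interval half-widths were 26.0 to 62.9% of the level.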

Other observations

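Pannexins form channels in the membrane of a single cell and are unrelated to connexins in sequence. Panx1 stood at 10.97 TPM in replicate 2, against 9.73 TPM in replicate 1, close to Gja3 in level, and Panx2 at 1.33 and 1.61 TPM. Panx3 had 2 and 3 reads. The log2 ratios of scaled counts between the libraries were −0.02 for Panx1 and −0.07 for Panx2, both with counting intervals that span 0.

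Of 7 smooth muscle genes, 6 passed 1 TPM in both libraries, against 57.3% of all protein-coding genes. Acta2, Cnn1 and Tagln led, and the median log2 ratio was 0.11. Those leading genes are also known from embryonic heart muscle, while Myh11, more particular to smooth muscle, stood at 2.54 and 2.14 TPM in replicates 2 and 1, and Lmod1 at 1.11 and 0.97 TPM. All 10 erythroid genes passed 1 TPM in both, and they did not move one way. Over all genes with a mean of at least 50 reads, 1.01% were 2-fold apart. Of the 10, 3 were at least 2-fold higher in replicate 2 (Klf1, Gata1 and Hemgn, with log2 ratios of 1.59, 1.17 and 1.95) and 2 at least 2-fold lower (the globin genes Hbb-bh1 and Hba-x, with −1.29 and −1.09), and the median was −0.29. Their summed level was 22345 TPM in replicate 2 and 36814 TPM in replicate 1. The embryonic globin gene Hbb-y made up most of that sum.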
